A study of Mus musculus with 10 samples.

Results

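The 10 genes described here are the fibroblast growth factor (FGF) receptor genes Fgfr1, Fgfr2 and Fgfr3, the ligand genes Fgf2, Fgf7 and Fgf18, and the feedback genes Spry1, Spry2, Spry4 and Dusp6. They were chosen by name and all 10 were found among the 40620 genes of the count table. FGF ligands bind receptor tyrosine kinases on the cell surface together with heparan sulfate chains, and the bound receptor signals through the adaptor FRS2, RAS, RAF and MEK to the kinase ERK. Active ERK raises the transcription of its own inhibitors, among them the Sprouty genes and Dusp6, a phosphatase that removes phosphate from ERK. In bone, FGF signalling acts in osteoblast precursors, and changes in the receptor genes cause disorders of the skull and of the growth plate.

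RNA was sequenced from MC3T3-E1 subclone 4, an established pre-osteoblastic line from mouse calvaria, at 5 stages with 2 libraries each, named A and B. Subconfluent and confluent cells were kept in αMEM growth medium with 10% serum. The 24 h, 14 d and 21 d cells were kept for that long in differentiation medium, which held ascorbic acid at 50 μg/ml and β-glycerophosphate at 10 mM. All groups are 1 cell line, and nothing in the labels says that A and B came from separate cultures, so p-values measure only the spread between these libraries. A lower level in such bulk RNA cannot tell fewer expressing cells from less RNA per cell.

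Library depth, as the total count per library in units of 1e6, ran from 44.7 to 162.9. The 24 h libraries stood apart from each other: the SD of the log2 ratio of A to B over 16133 genes was 0.685 at 24 h and 0.287 to 0.325 at the other stages. Subconfluent, confluent and 24 h libraries carried 1 pair of sequencing indices and 14 d and 21 d libraries another, so stage and library set cannot be told apart between those sets. All 10 osteoblast markers looked at had a mean over the 10 libraries of at least 1 RPKM (reads per kilobase of transcript, scaled to the size of the library), and their summed level ran from 7439 to 21590 RPKM. At 21 d against subconfluent cells 7 of these 10 were called higher and 0 lower, beside 27.6% of all genes called. The largest log2 changes were those of Bglap (8.94), Ibsp (7.43), Phex (5.03) and Dmp1 (4.32). At 21 d against 14 d Dmp1 and Spp1 were called higher and Alpl and Col1a1 lower, beside 3.97% of all genes called. Of other cell types, the summed endothelial markers were low but rose, from 0.0216 to 0.0534 RPKM in subconfluent cells to 0.320 to 0.495 at 21 d. At 21 d against subconfluent cells, Vwf (21.1-fold, adjusted p = 9.8e-05) and Tek (13.2-fold, adjusted p = 0.019) were called higher, and Pecam1 was not called. Tek had 1 count in each subconfluent library and 9 to 15 at 21 d. It could pass the filter on low counts only through the late stages, so its rise follows from that filter. Vwf was also called higher at 14 d against confluent cells and at 21 d against 14 d. The blood cell genes Ptprc, Hbb-bs and Cd3e had no count in any library, and the adipocyte genes Adipoq, Plin1, Lep, Cidec and Lpl stayed under 0.1 RPKM. The summed level of the 8 blood cell markers was 8.21 to 14.0 RPKM, most of it from Itgam and Csf1r, with means of 6.88 and 2.24 RPKM. That of the 8 adipocyte markers was 2.86 to 3.27 RPKM in subconfluent cells and 6.56 to 6.83 at 21 d, where Cebpa was called higher (log2 change 1.27, SE 0.13, adjusted p = 1.7e-04) and Pparg lower (-1.67, SE 0.54, adjusted p = 0.035), and Fabp4, also called higher, had 1 count in each subconfluent library and 9 to 10 at 21 d. Chondrocyte markers were present and moved with stage: their sum was 182 to 185 RPKM in subconfluent cells, 98.0 to 107 in confluent cells, 54.8 to 73.1 at 24 h, 248 to 259 at 14 d and 123 to 134 at 21 d, with Acan, which encodes aggrecan, under 0.1 RPKM. Of the 7 tested, 5 were called higher at 21 d than in subconfluent cells and 1, Matn3, lower, beside 27.6% of all genes called. The part of these marker genes in the results below was not tested.

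Every one of the 10 genes varied over the 5 stages by edgeR's quasi-likelihood F test at an adjusted p under 0.05, a test that 48.9% of the 20808 genes tested also passed. Spry1 had the smallest adjusted p of the 10 (5.7e-06) and Fgf2 the largest (0.028). In what follows a gene is called where the adjusted p was under 0.05 and the change was more than 2-fold. Between confluent and subconfluent cells, 3 of the 10 genes were called, against 1.43% of all genes: Spry1 and Fgf18 higher (1.0% of all genes) and Fgf7 lower (0.423%). At an adjusted p under 0.05 with any fold there were 5 of 10 (3.28%). None of the 10 was called by edgeR between 24 h and confluent cells, where 2.13% of all genes were. The adjusted p was under 0.05 for 2 of 10 in that comparison (5.15%) and the unadjusted p for 6, and DESeq2 and limma also called 0. Between 14 d and 24 h, which differ in library set, 1 gene was called, Spry1, higher (5.98% of all genes called, 4.47% higher), and 4 of 10 passed with any fold (17.3%). Between 21 d and 14 d, 1 gene was called, Spry2, higher (3.97% called, 1.52% higher), and 5 of 10 passed with any fold (9.72%). Also across the library sets, 3 of 10 were called at 14 d against confluent cells, each higher (13.0% called, 9.15% higher), and 7 of 10 passed with any fold (32.1%). At 21 d against subconfluent cells 5 of 10 were called, each higher (27.6% called, 16.3% higher), and 6 of 10 passed with any fold (50.7%). The median log2 change of the 10 genes from subconfluent cells to 21 d was 1.13, beside 0.04 over all genes tested.

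**Figure D1:**
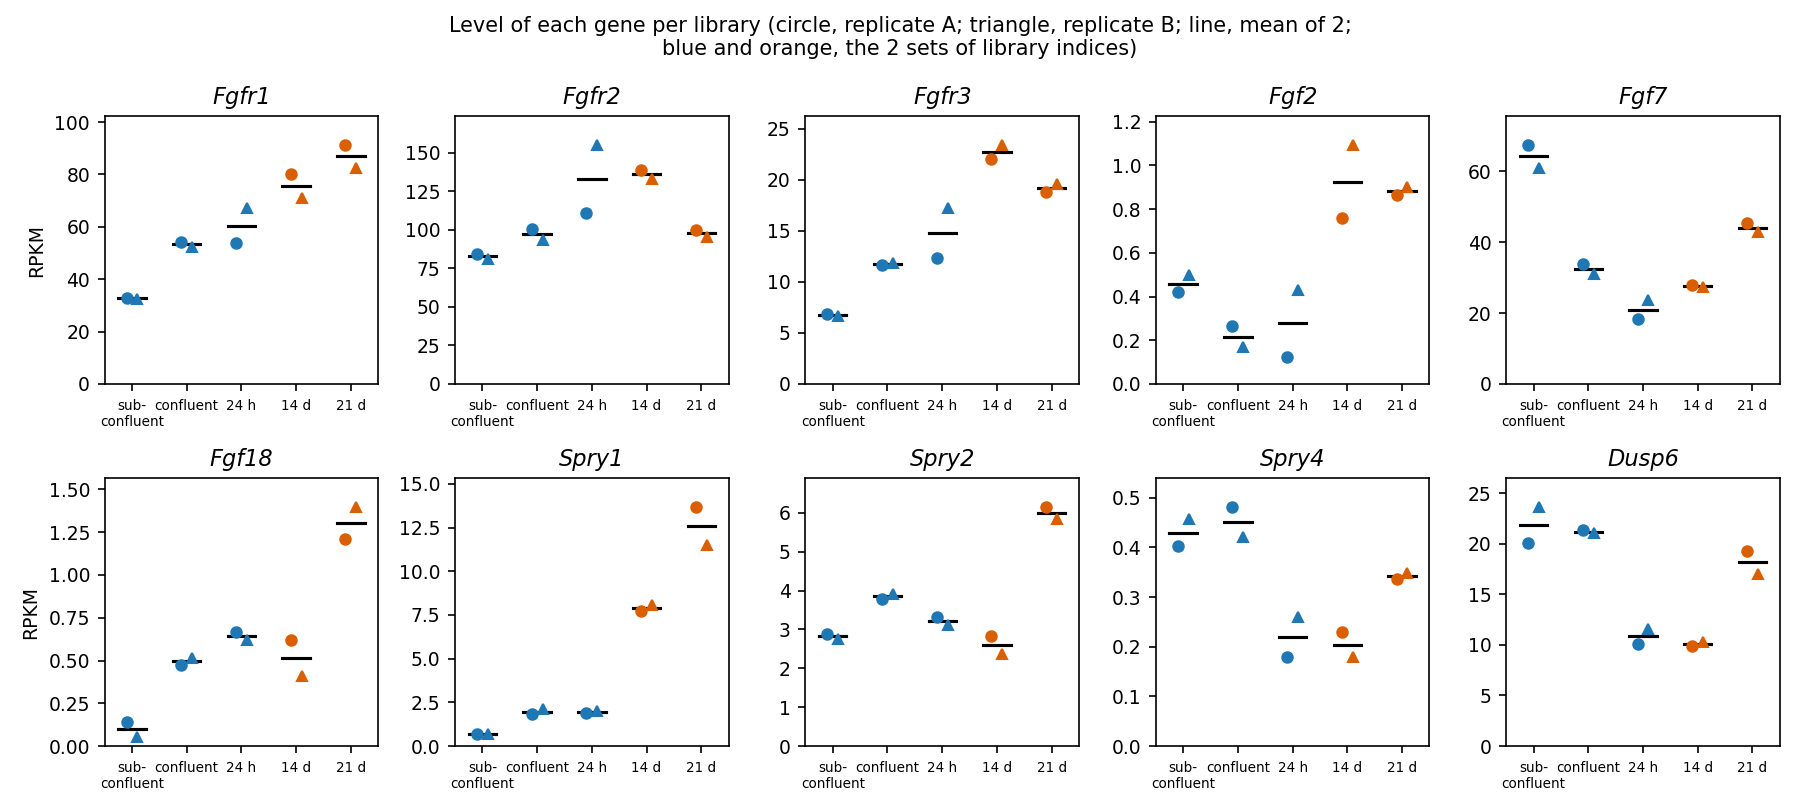
Level of each of the 10 genes in RPKM (y axis) at the 5 stages (x axis), with circles for replicate A, triangles for replicate B, a line for the mean of 2 and colours for the 2 sets of sequencing indices. Spry1 climbs from 0.697 RPKM in subconfluent cells to 12.6 RPKM at 21 d, while Dusp6 and Spry4 are low at 24 h and 14 d and higher again at 21 d.

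Among the receptor genes Fgfr2 had the highest level and Fgfr3 the lowest at every stage. Fgfr1 (chr8:25513654-25575718 in GRCm38, plus strand) encodes the receptor kinase that mesenchymal cells commonly carry. It was at 32.8 (A) and 32.5 (B) RPKM in subconfluent cells, 54.4 and 52.2 in confluent cells, 53.7 and 67.3 at 24 h, 80.2 and 71.1 at 14 d, and 91.3 and 82.6 at 21 d. In RPKM both libraries at 21 d lay above both at every earlier stage, whereas with TMM scaling those of 14 d and 21 d overlapped, and the log2 change between them was 0.13 (SE 0.11, adjusted p = 0.58). From subconfluent cells to 21 d Fgfr1 rose by 1.53 on the log2 scale (SE 0.11, adjusted p = 3.9e-05), which is 2.88-fold, and it stayed called in all 22 alternative analyses. Part of that difference was already there at confluence, with a log2 change of 0.68 (SE 0.11, adjusted p = 0.024), which stayed under 2-fold. Without any 1 subconfluent, confluent, 14 d or 21 d library, the adjusted p of this first step was 0.06 to 0.17. At 14 d Fgfr1 stood 0.72 above confluent cells on the log2 scale (SE 0.11, adjusted p = 0.0027).

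Fgfr2 (chr7:130162451-133123350 in GENCODE, minus strand) encodes the receptor whose activating mutations fuse the sutures of the skull early. It had the highest level of the 10 genes at every stage, 82.7 ± 2.06 RPKM (SD, n = 2) in subconfluent cells, 97.0 ± 5.17 in confluent cells, 133 ± 31.0 at 24 h, 136 ± 4.09 at 14 d and 97.6 ± 3.18 at 21 d, and ranked in the 95.3 to 97.2 percentile of genes by RPKM. At 24 h, A was at 111 RPKM and B at 155, both above the confluent libraries. The level was thus highest in the middle of the course, and 21 d cells (95.4 and 99.9 RPKM) overlapped confluent cells (93.3 and 101) in RPKM. With TMM scaling they did not, at 431 and 414 CPM (counts scaled to library size) beside 394 and 367. The log2 change from confluent cells to 14 d was 0.70 (SE 0.13, adjusted p = 0.0064), with an adjusted p of 0.051 without confluent B and 0.08 with library size as the only scaling. From 14 d to 21 d Fgfr2 fell by 0.55 (SE 0.13, adjusted p = 0.042), but the adjusted p was under 0.05 in only 8 of 22 alternatives, and was 0.077 to 0.23 in the 8 fits that left out a library other than those of 24 h. From subconfluent cells to 21 d the change was 0.36 (SE 0.13, adjusted p = 0.055), which did not pass.

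Fgfr3 (chr5:33721674-33737068, plus strand) encodes the receptor that restrains growth plate cartilage and is also made by osteoblasts. Its level was 6.77 ± 0.119 RPKM in subconfluent cells, 11.8 ± 0.141 in confluent cells, 14.8 ± 3.41 at 24 h, 22.7 ± 1.0 at 14 d and 19.2 ± 0.531 at 21 d (SD, n = 2). No library of a differentiated stage overlapped those of growth medium. Fgfr3 was called higher at 14 d than in confluent cells, with a log2 change of 1.17 (SE 0.13, adjusted p = 6.5e-04), and at 21 d than in subconfluent cells, with 1.62 (SE 0.13, adjusted p = 5.2e-05). The first of these fell to 0.94 without normalisation beyond library size, to 0.89 on log2(RPKM + 1) and to 0.94 on log2(RPKM + 0.1), all under 2-fold. The log2 change from 14 d to 21 d was -0.32 (SE 0.12, adjusted p = 0.18), while the summed chondrocyte markers went from 248 to 259 RPKM down to 123 to 134. These markers did not move together: of the 7 tested, 3 were called lower (Col2a1, Col9a1 and Matn3) and 1 higher (Col10a1), beside 3.97% of all genes called.

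**Figure D2:**
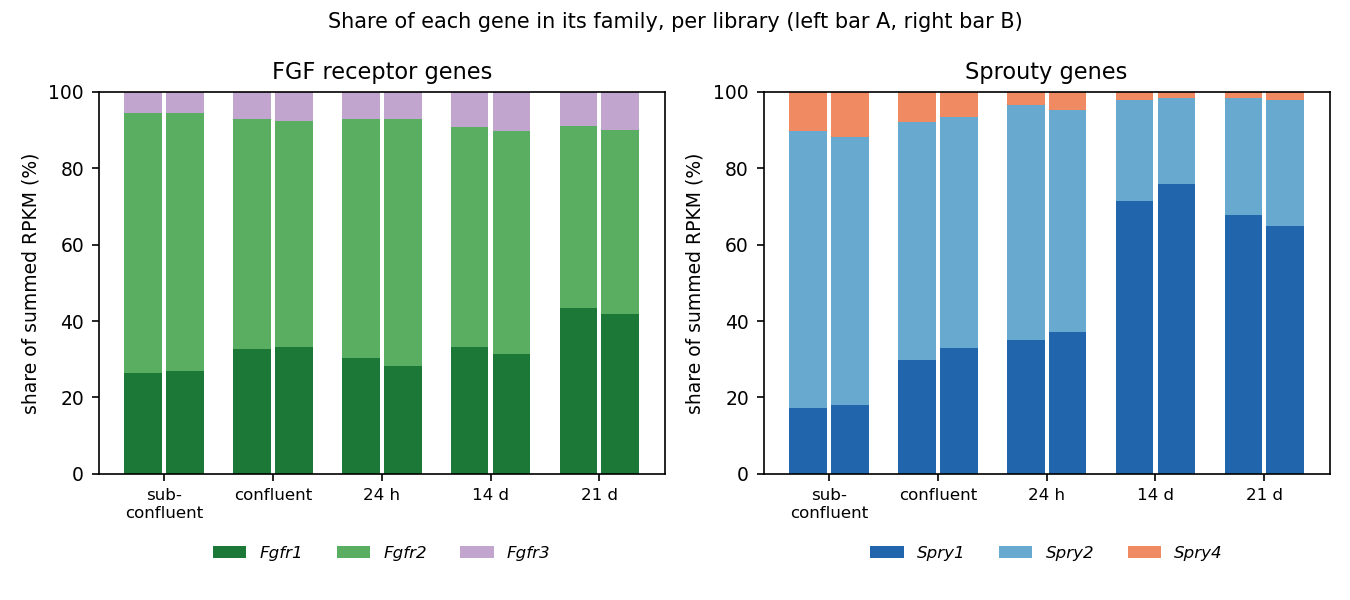
Share of each receptor gene (left) and each Sprouty gene (right) in the summed RPKM of its family, in percent (y axis), for replicate A (left bar) and B (right bar) of the 5 stages (x axis). Fgfr1 grows from 26.8% to 42.6% of the receptor total, and Spry1 from 17.6% to 66.4% of the Sprouty total.

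Because RPKM is per length, the makeup of the family can be set side by side. Fgfr2 made up 67.7 ± 0.368% of the summed RPKM of the 3 receptor genes in subconfluent cells and 47.9 ± 0.495% at 21 d, and Fgfr1 went from 26.8 ± 0.354% to 42.6 ± 1.17% (SD, n = 2). Fgfr3 went from 5.54 ± 0.0106% to 9.44 ± 0.666%. For each of the 3 genes the 2 libraries at 21 d lay outside the range of the 2 subconfluent ones. The 3 shares of a library are parts of 1 total, so these are not separate observations. How often 2 libraries lie apart from 2 others over all genes was not tested. No test was made of these shares. With the exon lengths left out, the Fgfr1 share was 31.4% in subconfluent cells and 48.2% at 21 d. The length behind the deposited RPKM was 6235 bases for Fgfr2, while all GENCODE exons of that gene cover 10328 bases, so the share also rests on the transcript model. The GENCODE span of Fgfr2 also reaches far upstream of its RefSeq promoter window, at chr7:130266759-130267058. Exons of Fgfr1 overlap the opposite-strand gene Gm16159 over 164 bases and those of Fgfr2 the same-strand gene Ctbp2 over 314 bases, and both partners had lower mean counts (1366 beside 32051 and 2455 beside 46359). Those of Fgfr3 overlap the opposite-strand gene G630022F23Rik over 998 bases, for which no count was used here.

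Of the ligand genes, Fgf7 (chr2:126034658-126091185, plus strand), which encodes a factor that mesenchymal cells secrete and that the epithelial splice form of FGFR2 binds, was the only one above 2 RPKM. It was at 67.4 (A) and 60.9 (B) RPKM in subconfluent cells, 33.8 and 31.1 in confluent cells, 18.3 and 23.7 at 24 h, 27.8 and 27.3 at 14 d, and 45.5 and 42.8 at 21 d. The level was thus lowest at 24 h. In RPKM no 2 stages overlapped, but with TMM scaling 14 d libraries overlapped confluent ones, and the log2 change between them was -0.02 (SE 0.11, adjusted p = 0.93). Fgf7 was called lower in confluent than in subconfluent cells, with a log2 change of -1.01 (SE 0.11, adjusted p = 0.0048), close to the 2-fold threshold, and with upper-quartile scaling the change was -0.99. Without subconfluent A the change was -0.93 (adjusted p = 0.053) and without confluent B -0.95 (adjusted p = 0.063), and neither was called. A further log2 change of -0.55 at 24 h (SE 0.11, adjusted p = 0.037) had an adjusted p of 0.065 to 0.21 without any 1 library of another stage. From 14 d to 21 d Fgf7 rose by 0.60 (SE 0.11, adjusted p = 0.015), which became 0.079 to 0.12 when any 1 of these 4 libraries was left out. At 21 d Fgf7 was below subconfluent cells by a log2 change of -0.42 (SE 0.11, adjusted p = 0.015). The adjusted p was 0.077 without subconfluent A, 0.056 without 21 d A and 0.094 without 21 d B.

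Fgf18 (chr11:33117430-33147400, minus strand) encodes a ligand known for its part in skull and long bone growth. Its counts were low, 17 (A) and 2 (B) in subconfluent cells, 19 and 66 in confluent cells, 67 and 58 at 24 h, 66 and 16 at 14 d, and 50 and 132 at 21 d. In RPKM these were 0.140 and 0.0546, 0.473 and 0.518, 0.667 and 0.622, 0.621 and 0.411, and 1.21 and 1.40. Subconfluent libraries lay below, and 21 d libraries above, those of every other stage. From subconfluent cells to 21 d Fgf18 was called with a log2 change of 3.71 (SE 0.43, adjusted p = 3.4e-04), and it stayed called in all 21 alternative analyses that tested it. The size of the change depended on the few subconfluent counts and ran from 1.07 on log2(RPKM + 1) to 4.63. The call at confluence (log2 change 2.18, SE 0.42, adjusted p = 0.041) held in 9 of 21 alternatives, with adjusted p of 0.076 to 0.23 when a subconfluent, confluent, 14 d or 21 d library was left out. From 14 d to 21 d the change of 1.25 (SE 0.38, adjusted p = 0.09) did not pass. Its adjusted p was under 0.05 in 5 of 21 alternatives. These were DESeq2, both limma scales, a fit of only these 2 groups, and a fit without the 24 h libraries (1.25, adjusted p = 0.047).

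Fgf2 (chr3:37348346-37410108, plus strand), the basic FGF that cells store in their matrix, was also near the limit of detection, with 14 to 112 counts per library. Its level was 0.459 ± 0.0563 RPKM in subconfluent cells, 0.216 ± 0.0694 in confluent cells, 0.277 ± 0.220 at 24 h, 0.926 ± 0.236 at 14 d and 0.883 ± 0.0260 at 21 d (SD, n = 2). The libraries of 14 d and 21 d lay above all those of the first 3 stages. The length behind the deposited RPKM was 1553 bases for Fgf2, beside 6782 bases for all its GENCODE exons, so these levels also rest on the transcript model. Fgf2 was called higher at 14 d than in confluent cells, with a log2 change of 2.34 (SE 0.56, adjusted p = 0.018). That call was lost without confluent A (adjusted p = 0.059), confluent B (0.12) or 14 d B (0.09). The change from 24 h to 14 d was 1.89 (SE 0.54, adjusted p = 0.054), and 2.94 (adjusted p = 0.002) without 24 h B. Fgf2 shares 640 exon bases with Nudt6 on the opposite strand, which had a mean count of 319.6 per library beside 52.3 for Fgf2. Nudt6 was itself higher at 14 d than in confluent cells (log2 change 0.85, SE 0.23, adjusted p = 0.027), and reads of the pair cannot be told apart where the strand setting of the counting is not given.

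Spry1 (chr3:37639947-37644598, plus strand) had the largest change of the 10 genes from subconfluent cells to 21 d. The Sprouty proteins block signalling between the receptor and ERK. Spry1 was at 0.682 (A) and 0.711 (B) RPKM in subconfluent cells, 1.81 and 2.12 in confluent cells, 1.88 and 2.00 at 24 h, 7.71 and 8.06 at 14 d, and 13.7 and 11.5 at 21 d. The values fall on 4 levels, since confluent and 24 h libraries overlapped and all other stages were apart. Spry1 was called at confluence (log2 change 1.48, SE 0.13, adjusted p = 0.0024), with 0.07 (SE 0.12, adjusted p = 0.94) from there to 24 h. It was called again between 24 h and 14 d (2.15, SE 0.13, adjusted p = 1.4e-04) and from confluent cells to 14 d (2.22, SE 0.13, adjusted p = 5.4e-05). From 14 d to 21 d it rose by a further 0.60 (SE 0.12, adjusted p = 0.024), which was 0.055 to 0.19 when any 1 of these 4 libraries was left out. From subconfluent cells to 21 d the log2 change was 4.29 (SE 0.14, adjusted p = 2.5e-06), or 19.6-fold, and over 22 alternatives it ran from 3.0 to 4.42 and stayed called. The step at confluence fell to 0.80 only on log2(RPKM + 1), a scale that compresses values near 1 RPKM. Exons of Spry1 overlap the opposite-strand gene Gm42922 over 710 bases, for which no count was used here.

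Spry2 (chr14:105891947-105896819, minus strand) followed another course. Its level was 2.82 ± 0.0909 RPKM in subconfluent cells, 3.85 ± 0.0965 in confluent cells, 3.22 ± 0.140 at 24 h, 2.61 ± 0.330 at 14 d and 5.99 ± 0.221 at 21 d (SD, n = 2). Libraries at 21 d, with 6.15 and 5.83 RPKM, were above all others, and 14 d libraries (2.84 and 2.37) overlapped subconfluent ones (2.89 and 2.76). Spry2 was called higher at 21 d than at 14 d (log2 change 1.13, SE 0.13, adjusted p = 0.0022) and than in subconfluent cells (1.20, SE 0.13, adjusted p = 2.5e-04). Both comparisons gave a change under 2-fold on log2(RPKM + 1), at 0.96 and 0.87, and held in the other 21 alternatives. None of the steps before 14 d passed the test, with log2 changes of 0.42 at confluence (SE 0.13, adjusted p = 0.15) and -0.17 at 24 h (SE 0.13, adjusted p = 0.48).

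Spry4 (chr18:38586247-38601415, minus strand) had the lowest level of the Sprouty genes, with 27 to 208 counts per library. It was at 0.402 (A) and 0.457 (B) RPKM in subconfluent cells, 0.481 and 0.420 in confluent cells, 0.180 and 0.260 at 24 h, 0.230 and 0.178 at 14 d, and 0.337 and 0.349 at 21 d. Subconfluent and confluent libraries overlapped and lay above 21 d, and 24 h and 14 d libraries overlapped and lay below it. The log2 change from confluent cells to 24 h was -0.95 (SE 0.23, adjusted p = 0.064), and -1.16 (adjusted p = 0.0099) without 24 h B. From confluent cells to 14 d Spry4 fell by 0.91 (SE 0.23, adjusted p = 0.023), but the adjusted p was 0.06 to 0.14 without any 1 of those 4 libraries. From 14 d to 21 d the change of 0.67 (SE 0.24, adjusted p = 0.13) did not pass.

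In the family as a whole, Spry2 gave 71.5 ± 1.73% of the summed Sprouty RPKM in subconfluent cells and Spry1 17.6 ± 0.658%, whereas at 21 d Spry2 gave 31.8 ± 1.77% and Spry1 66.4 ± 1.99% (SD, n = 2). At 14 d the share of Spry1 was 73.8 ± 3.13%. Spry4 went from 10.9 ± 1.07% to 1.82 ± 0.216%. Spry2 was thus the leading Sprouty gene in both libraries of the first 3 stages, and Spry1 in both libraries of the last 2, which also differ in library set. Spry3 was not matched in the tables and is not analysed here.

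Dusp6 (chr10:99263231-99267489, plus strand) encodes the cytoplasmic phosphatase of ERK. It was at 20.1 (A) and 23.6 (B) RPKM in subconfluent cells, 21.3 and 21.0 in confluent cells, 10.1 and 11.6 at 24 h, 9.84 and 10.3 at 14 d, and 19.3 and 17.0 at 21 d. The 24 h and 14 d libraries overlapped each other and lay well below the other 6. Dusp6 fell by 0.88 on the log2 scale from confluent cells to 24 h (SE 0.11, adjusted p = 0.0064). The change was -0.83 without 24 h A and -0.91 without 24 h B, and the adjusted p rose to 0.055 without confluent A and 0.053 without confluent B. From 24 h to 14 d the change was 0.02 (SE 0.11, adjusted p = 0.91). From 14 d to 21 d, within 1 library set, Dusp6 rose by 0.78 (SE 0.11, adjusted p = 0.0048), or 0.056 without 14 d A. With TMM scaling no Dusp6 change reached 2-fold, and 21 d cells differed from subconfluent cells by -0.15 (SE 0.11, adjusted p = 0.28).

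**Figure D3:**
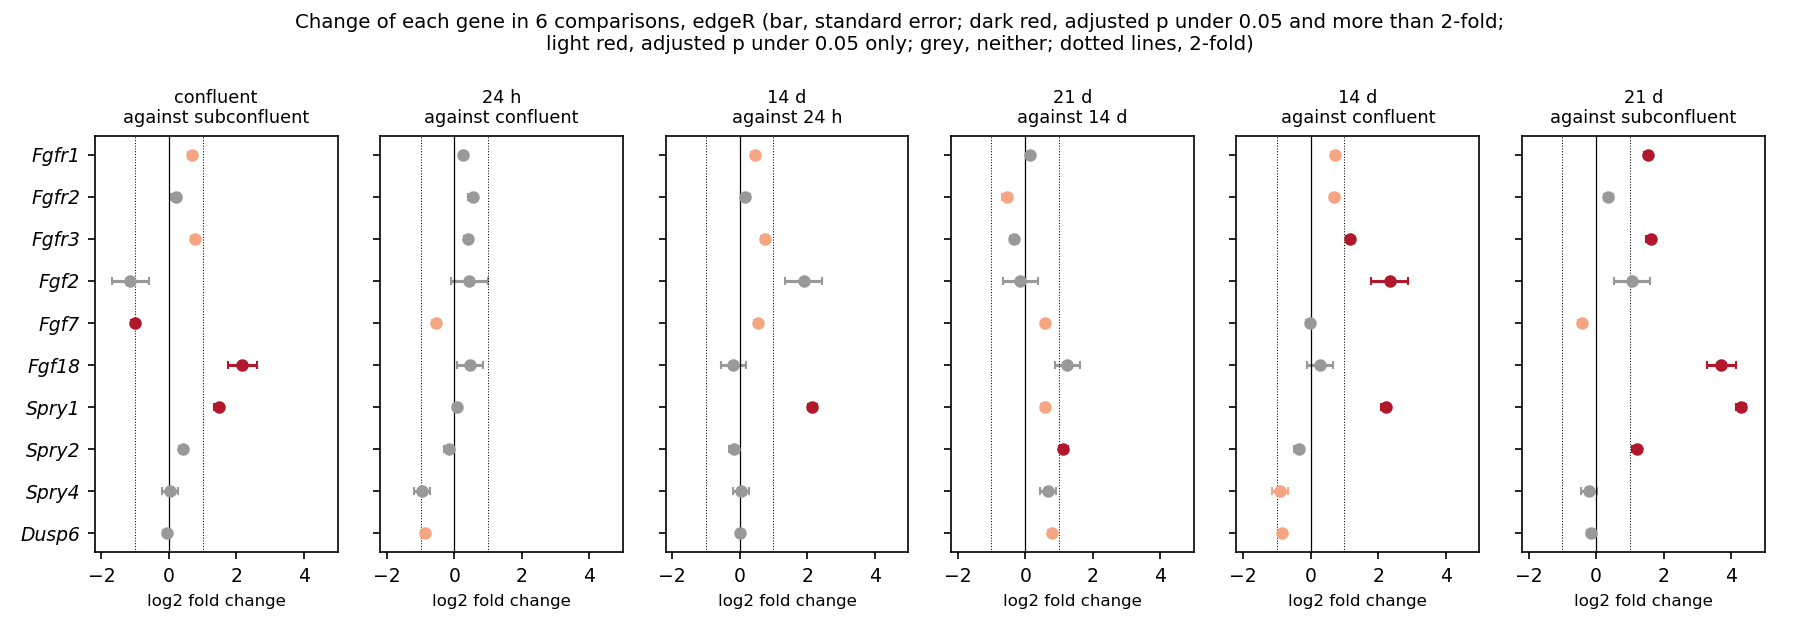
Log2 fold change (x axis) of each of the 10 genes (y axis) in 6 comparisons from 1 edgeR fit, with bars for the standard error, dark red where called, light red where only the adjusted p was under 0.05, grey otherwise, and dotted lines at 2-fold. Spry1 lies at 4.29 and Fgf18 at 3.71 from subconfluent cells to 21 d, and Dusp6 and Spry4 lie below 0 at 24 h against confluent cells.

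Promoter sequence was taken from RefSeq (GRCm38.p6) for windows of 300 bases, 250 before and 50 after the start. A window was found for 8 of the 10 genes (9 windows, of which 2 for Fgfr3), not for Fgfr1 and Spry4. Both strands were searched for the ETS site CCGGAA (in 14.9% of all 32851 windows), the AP-1 site TGANTCA (7.81%), the cAMP response element TGACGTCA (1.79%), the RUNX core TGTGGT (16.8%) and the GC box GGGCGG (35.7%). None of these motifs contains another, and shorter forms such as GGAA were not searched for. AP-1, cAMP response element and RUNX letters were in none of the 9 windows. Windows of 3 feedback genes are shown because, of the members known to be induced by ERK, these had a window and Spry4 did not. Spry1 is printed before its start (chr3:37639697-37639946, plus strand, GC box in capitals). Spry2 is printed around the 1 match to CCGGAA among the 9 windows (chr14:105896770-105896799, minus strand, positions 21 to 50 after the start, match in capitals). Dusp6 is printed up to position 10 (chr10:99262981-99263240, plus strand), which holds none of the 5 motifs.
Spry1: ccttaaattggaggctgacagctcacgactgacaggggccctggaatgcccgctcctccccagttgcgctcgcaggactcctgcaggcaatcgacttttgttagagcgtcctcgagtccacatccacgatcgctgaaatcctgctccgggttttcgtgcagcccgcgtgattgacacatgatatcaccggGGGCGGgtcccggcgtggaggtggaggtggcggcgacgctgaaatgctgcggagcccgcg
Spry2: gaggtcatctatcCCGGAAtccgggagggt
Dusp6: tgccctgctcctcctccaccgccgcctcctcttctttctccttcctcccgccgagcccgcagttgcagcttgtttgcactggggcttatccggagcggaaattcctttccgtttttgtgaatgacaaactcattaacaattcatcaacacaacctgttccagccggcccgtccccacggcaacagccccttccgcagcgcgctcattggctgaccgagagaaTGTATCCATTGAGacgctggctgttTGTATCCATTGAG
The capitals in Dusp6 mark 13 bases that occur at both -28 and -3 from the start. A repeat at least this long without overlap was in 5.32% of all windows, and of the other 2 windows of feedback genes the longest repeat was 9 bases in Spry1 and 8 in Spry2. The window of Fgf18 also held a repeat of 13 bases, in a run of GCG units after the start. The GC content of the full windows was 64.3% for Spry1, 62.7% for Spry2 and 57.3% for Dusp6, beside a median of 52.7% over all windows. GC boxes were also in both windows of Fgfr3 and in those of Fgf2 and Fgf18. These matches describe the letters of the windows and were not tied to the changes in level.

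Most other FGF ligand genes were barely detected. Fgf6 and Fgf15 had no count in any library, which allows up to 3 counts in each, and 11 of the other 17 stayed under 0.1 RPKM. Only 6 of the 19 passed the filter on low counts. Fgf14, Fgf1 and Fgf17 could pass it only through the late stages, so that a difference in favour of those stages follows from the filter. Fgf11, an intracellular member of the family, rose from subconfluent cells to 21 d with a log2 change of 3.22 (SE 0.23, adjusted p = 3.4e-05). Fgf14, with no count in subconfluent cells, was at least 10.0-fold higher at 21 d against a floor of 3 counts per library. Fgf17 had 1 to 3 counts per subconfluent library and 20 to 51 at 21 d, and Fgf1 0 to 1 and 8 to 19, and both were called, though DESeq2 did not pass Fgf1 (adjusted p = 0.077). Even so, their summed level at 21 d was only 2.23 to 2.51 RPKM, beside 42.8 to 45.5 RPKM for Fgf7 alone.

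Among the other receptors and co-receptors, Fgfr4, the Klotho genes Kl and Klb, Fgfbp1 and the glypican gene Gpc3 stayed under 0.1 RPKM in every library. The heparan sulfate proteoglycan genes Sdc2 and Sdc1, with mean levels of 93.7 and 84.2 RPKM, were not called in any of the 6 comparisons. Of 12 tested, 1 was called higher and 3 lower at 21 d than in subconfluent cells, beside 27.6% of all genes called. The adhesion protein gene Flrt1 rose (log2 change 3.91, SE 0.60, adjusted p = 0.0013), from 1 to 4 counts per library and a mean of 0.00607 RPKM to 0.0924 RPKM, a change that ran from 0.12 to 4.2 over the alternatives. Its relative Flrt3 fell (-2.15, SE 0.18, adjusted p = 6.8e-05), as did Gpc6 (-1.60, SE 0.14, adjusted p = 8.7e-05) and the syndecan gene Sdc3 (-1.63, SE 0.37, adjusted p = 0.0086, and 0.059 without 21 d B). At 14 d against confluent cells Flrt3 (-2.30) and Gpc6 (-1.09) were called lower (13.0% of all genes called), and at 14 d against 24 h (5.98%) Gpc1 was called higher (1.14) and Flrt3 lower (-1.53).

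All 22 genes of the cascade from receptor to ERK were tested, and 21 had a mean of at least 1 RPKM over the 10 libraries. Mapk3, which encodes ERK1, and Map2k2, which encodes MEK2, were the most abundant that were never called, with means of 68.7 and 56.7 RPKM. At 21 d against subconfluent cells 1 gene was called higher and 3 lower, beside 27.6% of all genes called. The adaptor gene Frs3 was higher (log2 change 1.18, SE 0.17, adjusted p = 9.1e-04). Lower were Rras2, a relative of RAS (-1.18, SE 0.11, adjusted p = 1.2e-04), the scaffold gene Ksr1 (-1.18, SE 0.15, adjusted p = 5.7e-04) and Rps6ka1, a kinase downstream of ERK (-1.14, SE 0.14, adjusted p = 3.9e-04). The adaptor gene Frs2 was called higher at 14 d than in confluent cells (1.03, SE 0.28, adjusted p = 0.027), but the adjusted p was 0.051 to 0.14 without any 1 library other than those of 24 h. The other 17 were called in none of the 6 comparisons, and the median log2 change of the list from subconfluent cells to 21 d was -0.25, beside 0.04 over all genes tested.

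Other feedback and target genes of ERK went in both directions. Of 27 tested, 3 were called higher and 3 lower at confluence, beside 1.43% of all genes called. The early response genes Fos (log2 change 1.89, SE 0.15, adjusted p = 0.0014), Egr1 (1.84, SE 0.18, adjusted p = 0.0028) and Ier2 (1.15, SE 0.20, adjusted p = 0.027) rose, whereas Hmga2, which encodes a chromatin protein (-1.5, SE 0.15, adjusted p = 0.003), and the transcription factor genes Fosl1 (-1.12, SE 0.14, adjusted p = 0.0086) and Etv5 (-1.02, SE 0.14, adjusted p = 0.01) fell. Without subconfluent A, subconfluent B or confluent B the adjusted p of Fosl1 and Etv5 was 0.066 to 0.11, and that of Ier2 was 0.069 to 0.21 without any 1 library other than those of 24 h. At 24 h against confluent cells (2.13% of all genes called), the comparison in which Dusp6 fell, Fos (-1.56, SE 0.14, adjusted p = 0.0025) and Egr1 (-1.03, SE 0.17, adjusted p = 0.019) were called lower and the receptor inhibitor gene Errfi1 higher (1.05, SE 0.12, adjusted p = 0.0054). The adjusted p of Egr1 was then 0.051 to 0.12 without any 1 confluent or 14 d library, and that of Errfi1 0.057 without confluent B. At 14 d against 24 h (5.98%) the phosphatase gene Dusp5 was called lower (-1.05, SE 0.14, adjusted p = 0.0036). At 14 d against confluent cells (13.0%) Lgals3 was called higher (1.49) and Egr2 (-1.38), Fos (-1.64) and Fosl1 (-1.67) lower. At 21 d against subconfluent cells (27.6%) 4 were called higher, the galectin gene Lgals3 (2.00), Egr1 (1.45), Bcl2l11, which encodes the cell death protein BIM (1.32), and Fos (1.22), and 3 lower, Fosl1 (-1.91), Etv5 (-1.27) and the urokinase receptor gene Plaur (-1.13), and Bcl2l11 had an adjusted p of 0.062 without subconfluent B. The cyclin gene Ccnd1 and Myc, at means of 109 and 71.2 RPKM, were called in none of the 6. Etv4, another ETS factor gene, singled out after its values were seen, stood at 412 RPKM in 24 h A and 2.06 in 24 h B, beside 1.77 to 10.7 at the other stages, and its log2 change of 5.16 from confluent cells to 24 h (SE 1.82, adjusted p = 0.15) did not pass. The median log2 change of the list was -0.10 at confluence and 0.00 at 21 d against subconfluent cells, beside 0.00 and 0.04 over all genes.

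**Figure D4:**
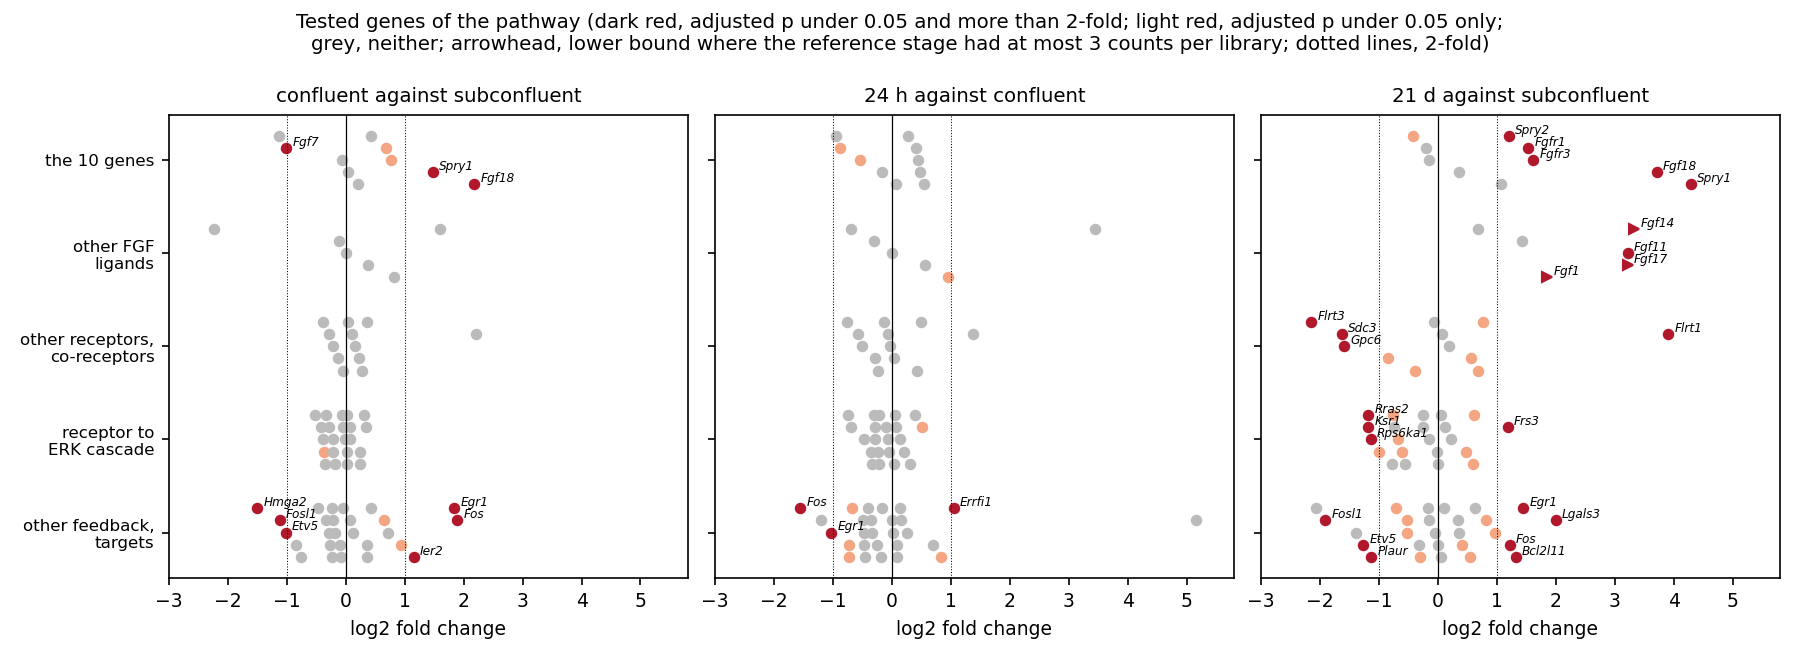
Log2 fold change (x axis) of every tested gene of 5 lists (y axis) in 3 comparisons, with dark red for called genes, light red where only the adjusted p was under 0.05, grey otherwise, and arrowheads for values set against a floor of 3 counts. The 22 cascade genes stay close to 0 at confluence and at 24 h, the grey point at 5.16 at 24 h is Etv4, and Spry1 lies at 4.29 at 21 d.

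The genes whose course over the 10 libraries was closest to that of a gene were found among the 12081 that averaged 5 CPM or more, by the root mean square difference of log2 values after centring each gene. The closest to Fgfr2 was Fkbp14 (0.09 log2 units) and the closest to Fgfr3 were Fbxl20 and Rab40b (0.16 each). For Fgf7 it was Ptpn21 (0.15) and for Spry2 Dnaja3 and Slc3a2 (0.15 each). For Spry1 they were Prelp (0.30) and Mlip (0.31), for Fgf2 Loxl4 (0.35) and for Fgf18 Dnaic1 (0.52). These distances grow with a gene's own spread over the libraries, an SD of 1.57 log2 units for Spry1, 1.01 for Fgf2 and 1.22 for Fgf18 beside 0.35 for Fgfr2, so they are not ranked between genes. For Spry4 the closest were Mvb12b (0.12) and Dusp6 (0.15), and for Dusp6 they were Mvb12b (0.11) and Zfp57 (0.17). The median difference over all genes compared was 0.53 for both Spry4 and Dusp6. The 10 libraries share stage, depth and library set, and these values are descriptions.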

How the data were processed

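The authors sequenced 51-base reads from MC3T3-E1 libraries. The submitters' processing notes name FastQC, TopHat2 2.0.9, R 3.0.1 and the mm10 build. The counting tool, its strand setting and its annotation are not given in the sources used here. The deposited counts are raw whole numbers per gene for 40620 genes. The deposited RPKM values, for 40603 genes, were made by the authors from a read total of 31 to 108 (in units of 1e6) per library, and the counts sum to 1.44 to 1.60 times these. For 14 d A and 21 d B, sequenced on 2 lanes, the deposited merged counts were used.

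Counts were tested with edgeR 4.0.16 in R 4.3.3 (filterByExpr, TMM, quasi-likelihood test, 1 fit over all 10 libraries with 5 groups and no covariate, Benjamini-Hochberg over 20808 genes), after the script was tested on simulated data. The SE given with an edgeR log2 change is the size of that change divided by the square root of its F statistic. It was not fitted separately and need not match the p-value. For Spry1 at 24 h against confluent cells, the change of 0.07 (SE 0.12) had an unadjusted edgeR p of 0.87. The study's methods do not name the test used for its RNA-seq data. RPKM is scaled by library size, so its ratios can differ from the TMM-scaled fold changes. RPKM is given per library and compared between genes. Alternatives used DESeq2 1.42.0, limma 3.58.1 (log2(RPKM + 1) and log2(RPKM + 0.1)), other scalings and filters, fewer groups, the replicate letter and single libraries left out. Coordinates, exons and lengths are from GENCODE vM21 (GRCm38), promoters from RefSeq. The 10 genes, the pathway and marker lists and the motifs were chosen with earlier results of these data known. Of each other pathway list, the genes named are those called in the comparisons described (up to 4 in each direction), never-called genes among the top 2 by mean RPKM, and undetected genes. Of the marker lists only some of the called genes are named. Depth and the 2 libraries per stage limit the low-count genes most. The gene closest in course to Fgfr1 is not reported here.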

Additional observations from a re-analysis of the deposited data

How the results depend on the processing

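With 2 libraries per stage, single libraries decided several calls near a threshold, and Fgf2 and Fgf18 were limited by their counts. The number of the 10 genes called changed most for small counts. At confluence against subconfluent cells, 3 became 0 on log2(RPKM + 1), 1 in a fit of only these 2 groups and 1 at more than 4-fold, and 1 to 3 when 1 library was left out (1 without subconfluent A or confluent B). At 24 h against confluent cells, 0 became 1 with library size alone and 0 to 1 when 1 library was left out (1 without 24 h B). At 14 d against 24 h, 1 became 2 with DESeq2, with at least 10 counts in every library and on log2(RPKM + 0.1), and 1 to 2 when 1 library was left out (2 without 24 h B). At 21 d against 14 d, 1 became 2 with DESeq2, without the 24 h libraries, on log2(RPKM + 0.1) and in a fit of only these 2 groups, and 0 on log2(RPKM + 1) and at more than 4-fold. At 14 d against confluent cells, 3 became 2 on log2(RPKM + 1) and at more than 4-fold, 4 with library size alone, and 2 to 3 when 1 library was left out (2 without confluent A, confluent B or 14 d B). At 21 d against subconfluent cells, 5 became 2 at more than 4-fold, 4 on log2(RPKM + 1) and with at least 10 counts in every library, and 6 without the 24 h libraries, without either of them and in a fit of only these 2 groups. The F test over 5 stages was passed by 8 to 10 of the genes when 1 library was left out. Without length correction the Fgfr1 share was 31.4%, 38.0%, 34.1%, 37.4% and 48.2% from subconfluent cells to 21 d, in place of 26.8%, 32.9%, 29.2%, 32.3% and 42.6%. Beyond the effect of fewer libraries, a stricter fold or a compressed scale, the cause was not tested.

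Changes that turned direction were all uncalled. For Spry1 at 24 h against confluent cells, 0.07 became -0.06 with library size alone, -0.01 on log2(RPKM + 1), -0.02 on log2(RPKM + 0.1) and -0.04 to 0.19 when 1 library was left out. For Fgf7 at 14 d against confluent cells, -0.02 became 0.02 with upper-quartile factors and with at least 10 counts in every library, and up to 0.04 when 1 library was left out. At 14 d against 24 h, Spry4 went from 0.04 to -0.08 with library size alone, -0.03 with no filter, -0.02 on log2(RPKM + 1), -0.06 on log2(RPKM + 0.1) and -0.16 to 0.22 when 1 library was left out. Dusp6 went from 0.02 to -0.08, -0.05, -0.09 and -0.10 under the same 4 settings, -0.01 with only these 2 groups and down to -0.04 when 1 library was left out. Leaving out 1 library also gave -0.02 to 0.32 for Fgfr2 and -0.51 to 0.05 for Fgf18 at 14 d against 24 h, -0.62 to 1.08 for Fgf2 at 24 h against confluent cells, -0.40 to 0.16 for Fgf2 at 21 d against 14 d, -0.04 to 0.52 for Fgf18 at 14 d against confluent cells, and at confluence -0.05 to 0.14 for Spry4 and -0.18 to 0.03 for Dusp6. Library size alone moved the median of all genes by -0.23 at 14 d against confluent cells and by -0.15 at 21 d against subconfluent cells, and upper-quartile factors moved the latter by 0.13.

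The sample titles link libraries of different stages only by the replicate letter. Within each library set that letter also goes with a single index, and some libraries of different stages carry the same lane number. Deviations of same-letter libraries correlated between -0.184 and 0.1 across stages. With that letter as a replicate block, 2 of the 10 genes were called at confluence in place of 3 (Fgf18 had an adjusted p of 0.074), and 0, 1, 1, 3 and 5 in the other comparisons, as without it, while 10 passed the F test. Among the other named genes the block ended the call of Ier2 at confluence (adjusted p = 0.065).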
